A study of Bos taurus with 8 samples.

Results

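Toll-like receptor 4 (TLR4) is the receptor through which blood cells sense lipopolysaccharide (LPS), the outer membrane glycolipid of Gram-negative bacteria. The genes described here are the TLR4 receptor complex and its adaptors, taken by name: TLR4, CD14, LY96, MYD88, TIRAP, TICAM1, TICAM2, IRAK4 and TRAF6. Of these 9 names, 8 were found among the 21861 genes listed in each table of the single-cell RNA sequencing (scRNA-seq). TICAM1 was not analysed here. All 8 had at least 20 unique molecular identifiers (UMIs, counted RNA molecules) over each pair of libraries compared, the minimum used here.

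LPS is handed by CD14, a surface protein of monocytes, to LY96 (also called MD-2), which is bound to the outside of TLR4. The loaded receptor dimerises and recruits adaptors to its inner side. TIRAP brings in MYD88, which assembles the kinase IRAK4 and, further on, the ubiquitin ligase TRAF6. TICAM2 serves the receptor after uptake into endosomes, where it links TLR4 to TICAM1 and the interferon branch. In blood the receptor is known from monocytes and neutrophils.

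Blood of 4 Holstein cattle (female, lactating, 2 years old) was mixed and divided into 4 parts. One part received no LPS, and 3 parts were held with LPS at 2 µg/ml and 37 °C for 2 h, 4 h or 8 h. Peripheral blood mononuclear cells were then isolated by centrifugation, and each part gave 1 scRNA-seq library and 1 library of the single-cell assay for open chromatin (scATAC-seq). All animals, and so all libraries, share 1 pool. With 1 library per treatment and assay there was no replicate, no test could be made and no p-value is given. The 95% intervals cover counting error only. No incubation time was given for the part without LPS, so the effect of LPS and that of time at 37 °C cannot be told apart. Every LPS library was compared with the same no LPS library.

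Series of 4 values are given in the order no LPS, 2 h, 4 h, 8 h. After the limits on genes, UMIs and mitochondrial share, 7821, 9865, 7387 and 3411 cells remained, with 16657841 to 47875879 UMIs per library. Median depth was 3997 to 4757 UMIs per cell. The 8 h library held the largest share of cells under 2000 UMIs, 26.6% against 8.83% to 14.3% in the others. Pairs of libraries shared 6 to 21 cell barcodes. No file gave cell types, so cells were sorted by 4 gate genes: at least 1 UMI of CD14, CD3E (T cells), MS4A1 (B cells) or NCR1 (natural killer cells) and none of the other 3. Levels are in CPM, that is, counts of a gene per 1000000 UMIs summed over a set of cells.

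The CD14 gate held 796, 382, 151 and 170 cells, or 10.2%, 3.87%, 2.04% and 4.98% of the cells. It thus held the largest share of cells without LPS and the smallest at 4 h. All 9 monocyte markers were detected in it in each library, with a summed level of 6354 to 9352 CPM against 11.6 to 235 CPM in the CD3E, MS4A1 and NCR1 gates. The gate gene CD14 is 1 of the 9. Its presence here, at 1330 to 2251 CPM, and its absence from those gates were fixed by the gating. Likewise CD3E, MS4A1 and NCR1, each in a list below, were absent here by the gating. Among the other lists in the CD14 gate, T cell markers summed to 13.9 to 56.0 CPM, B cell markers to 16.2 to 111 CPM and natural killer markers to 15.2 to 58.4 CPM. Plasma cell markers summed to 46.7 to 333 CPM, red cell markers to 28.5 to 64.2 CPM and platelet markers to 0.52 to 3.502 CPM. Dendritic cell markers summed to 1062 to 1412 CPM, nearly all of it BATF3, with CLEC9A and XCR1 at 0. At 8 h, 61.2% of the CD14-gated cells had a single CD14 UMI, against 11.2% without LPS, and their median depth was 1551 UMIs against 8293. The part of this depth in the 8 h values was not tested.

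Transcripts of the receptor itself were concentrated in the CD14 gate. TLR4 stood there at 85.9, 99.0, 164 and 78.2 CPM. In the CD3E gate it stood at 2.10, 2.20, 2.19 and 3.01 CPM, and in the MS4A1 gate at 2.80, 4.47, 5.58 and 3.31 CPM. TLR4 was thus 26.0 to 75.0 times higher in CD14-gated than in CD3E-gated cells, and the counting interval of this ratio lay above 16.2 in each library. The order of the gates was CD14, NCR1, MS4A1 and CD3E in all 4 libraries. MS4A1 and CD3E could not be ordered beyond counting error without LPS and at 8 h, nor NCR1 and MS4A1 at 8 h.

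**Figure D1:**
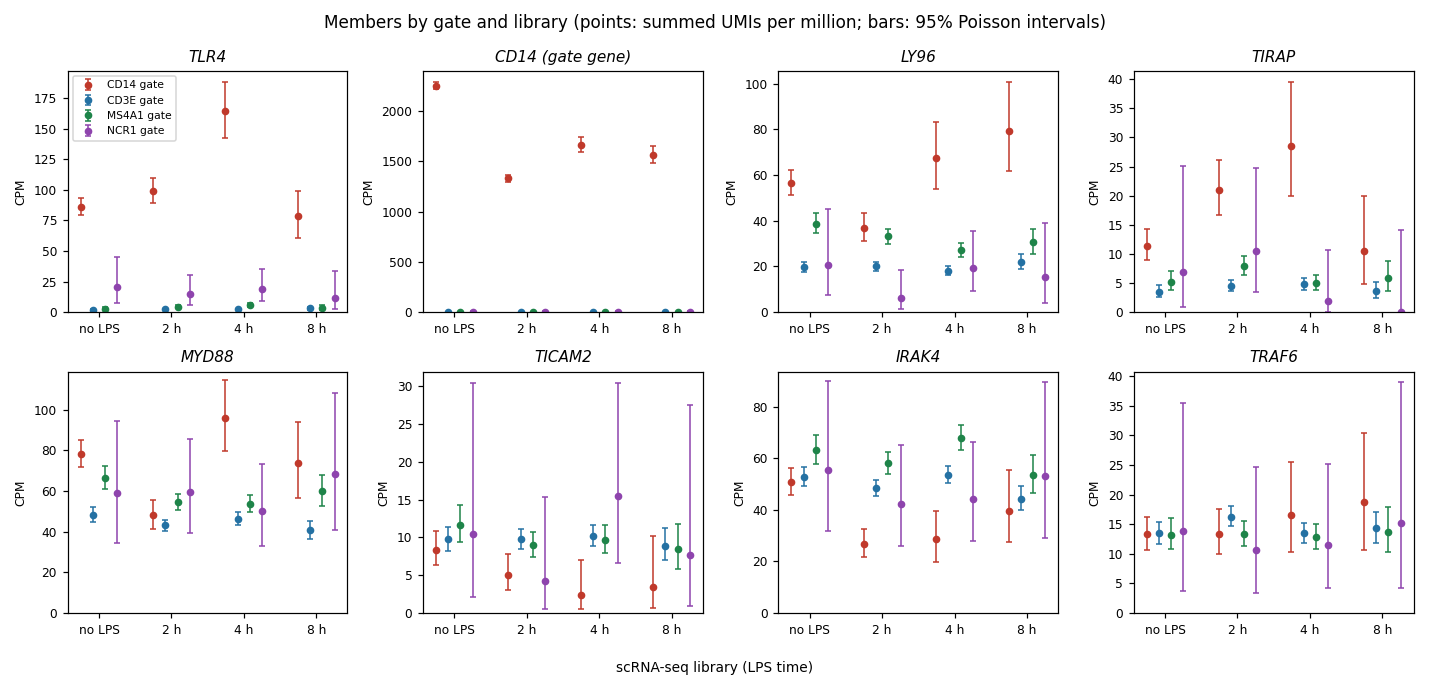
Level of each of the 8 genes (CPM of summed UMIs, vertical axes from 0) in the CD14, CD3E, MS4A1 and NCR1 gates of the 4 scRNA-seq libraries, with 95% Poisson intervals. TLR4 lies at 78.2 to 164 CPM in the CD14 gate. It lies at 2.10 to 5.58 CPM in the CD3E and MS4A1 gates and at 11.4 to 20.8 CPM in the NCR1 gate. TRAF6 lies at 10.6 to 18.7 CPM in all of the gates. CD14 is itself the gate gene.

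The adaptors and kinases were far less restricted. LY96 was highest in the CD14 gate in each library, at 56.5, 36.9, 67.3 and 79.4 CPM, with 27.1 to 38.7 CPM in the MS4A1 gate and 18.2 to 22.0 CPM in the CD3E gate. At 2 h its CD14 and MS4A1 gates did not differ beyond counting error. TIRAP, the adaptor that recruits MYD88, was 2.91 to 5.96 times higher in the CD14 than in the CD3E gate. MYD88 differed less between gates, with 48.2 to 95.9 CPM in the CD14 gate, 40.8 to 48.4 CPM in the CD3E gate and 53.6 to 66.3 CPM in the MS4A1 gate. For TRAF6 no ratio of the CD14 gate to the CD3E or MS4A1 gate lay beyond its counting interval.

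Against the CD3E gate, TICAM2 and IRAK4 ran the other way at 2 h and 4 h. TICAM2 stood at 8.36, 4.97, 2.38 and 3.502 CPM in the CD14 gate and at 8.90 to 10.2 CPM in the CD3E gate, and was lower in the CD14 gate beyond counting error at 2 h and 4 h. IRAK4, the first kinase after MYD88, stood at 50.8, 26.7, 28.5 and 39.7 CPM in the CD14 gate and at 44.4 to 53.6 CPM in the CD3E gate. At 2 h and 4 h it was 0.55 and 0.53 times the CD3E level. These last values come from 102 and 36 UMIs, so the counting interval at 4 h runs from 0.37 to 0.74. Without LPS and at 8 h neither gene differed between the CD14 and CD3E gates beyond counting error. The IRAK4 ratios there were 0.96 (0.85 to 1.09) and 0.89 (0.61 to 1.27).

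Seen cell by cell, TLR4 was sparse. A TLR4 UMI was found in 40.6%, 48.7%, 55.6% and 21.8% of CD14-gated cells. In CD3E-gated cells the shares were 0.89%, 0.85%, 1.04% and 1.48%. Median depth differed between these gates, at 8293, 10469, 5906 and 1551 UMIs in the CD14 gate and 4070, 4092, 4763 and 5245 in the CD3E gate. With each cell thinned to 1000 UMIs the CD14-gate shares were 9.67%, 14.6%, 24.8% and 8.40%, against 0.23% to 0.33% in the CD3E gate. Shallower cells were left out of this step, 14 to 62 per library in the CD14 gate and 51 to 123 in the CD3E gate. After thinning the 4 h share still lay highest and its counting interval, 17.8% to 32.9%, did not meet that without LPS, 7.63% to 12.04%.

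Cells with UMIs of CD14, TLR4 and LY96 together, the 3 surface parts of the complex, numbered 163, 79, 43 and 19, or 2.08%, 0.80%, 0.58% and 0.56% of all cells. Within the CD14 gate they made up 16.1%, 15.2%, 19.2% and 8.82%. Cells with a TLR4 UMI but no CD14 UMI numbered 132, 240, 206 and 86, or 1.69%, 2.43%, 2.79% and 2.52% of all cells. These shares were not adjusted for depth.

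Most cells with a TLR4 UMI were in the CD14 gate only without LPS. Of 540 such cells without LPS, 59.8% were in that gate, compared with 37.8% of 492, 25.1% of 334 and 25.2% of 147 in the LPS libraries. Cells with none of the 4 gate genes made up 13.5%, 29.7%, 29.9% and 29.3% of the cells with a TLR4 UMI. Of these ungated TLR4 cells, 57.5%, 49.3%, 64.0% and 46.5% had a UMI of CSF3R, CXCR1 or CXCR2, the receptors for granulocyte colony-stimulating factor and for interleukin-8 that are best known from neutrophils. The sets of cells defined by these 3 receptors were chosen after the data were seen.

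Ungated cells with a UMI of a granulocyte receptor numbered 88, 183, 129 and 48. TLR4 in them stood at 574, 384, 467 and 353 CPM, against 11.99 to 23.3 CPM in the remaining ungated cells and 78.2 to 164 CPM in the CD14 gate. The cells were shallow, with median depths of 1008 to 1693 UMIs, yet 39.3% to 49.6% of them had a TLR4 UMI. In the other ungated cells, at 1248 to 3851 UMIs, the share was 3.08% to 5.88%.

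The rest of the complex was uneven in these cells. Summed over the 4 libraries (448 cells, 726599 UMIs), TLR4 was 25.3 times the level of the other ungated cells (95% interval 21.2 to 30.2). MYD88 was 6.58 times higher (5.65 to 7.65), at 454, 180, 500 and 267 CPM by library. TIRAP was 6.86 times higher (4.66 to 9.94), and LY96 3.63 times (2.81 to 4.63). In contrast IRAK4 stood at 0.44 times (0.24 to 0.72). TICAM2 had 0 UMIs in all 4 libraries, where a floor of 3 counts corresponds to 4.13 CPM and the upper bound of its ratio was 0.59, and stood at 8.70 CPM in the other ungated cells. The interval for TRAF6 included 1.

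**Figure D2:**
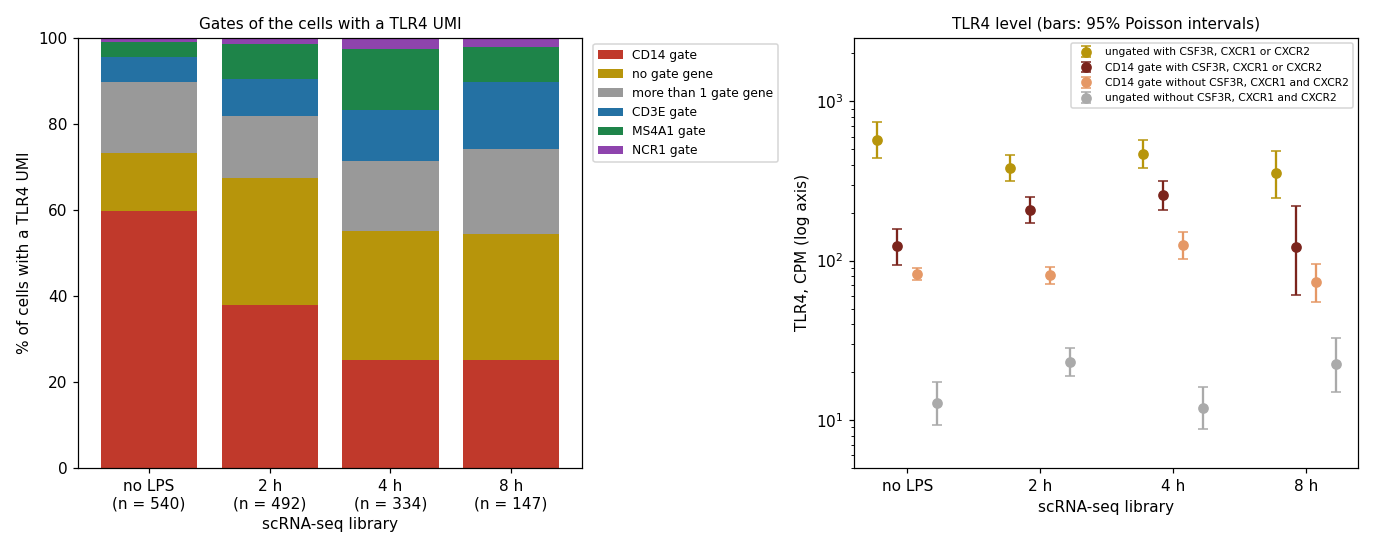
Left, gates of the cells with a TLR4 UMI (percent of those cells, n under each bar); right, TLR4 level (CPM, log axis) in ungated and CD14-gated cells with and without a UMI of CSF3R, CXCR1 or CXCR2, with 95% Poisson intervals. The CD14 gate falls from 59.8% to 25.2% of the TLR4 cells, and the ungated cells with a granulocyte receptor have the highest TLR4 level in each library, at 353 to 574 CPM.

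Natural killer gated cells also held some TLR4. Over the 4 libraries the NCR1 gate had 26 TLR4 UMIs, or 16.9 CPM, and was 7.40 times the CD3E gate (4.68 to 11.3). The monocyte gene S100A9 did not separate these gates (1.04 times, 0.69 to 1.51), and CD14 was at 0 in both by the gating. In ungated cells with a UMI of KLRF1, another natural killer gene, the ratio was 3.72 (0.45 to 13.7) on 2 TLR4 UMIs. Only 38 to 97 NCR1-gated cells per library and 3 to 10 TLR4 UMIs lie behind this value. A UMI of CSF3R was found in 1 NCR1-gated cell, at 8 h, and CXCR1 and CXCR2 were found in none. That cell was 1 of the 3 NCR1-gated cells with a TLR4 UMI at 8 h.

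Over all cells, TLR4 and CD14 were lower with LPS and the other 6 genes were not called at any time. A gene was called when it lay past 1.5-fold in the ratio of CPM + 1. TLR4 stood at 23.7, 17.1, 14.6 and 12.7 CPM. The ratio to no LPS was 0.72 (0.66 to 0.79) at 2 h, not called, 0.62 (0.55 to 0.68) at 4 h and 0.54 (0.46 to 0.62) at 8 h. CD14 stood at 501, 145, 82.6 and 111 CPM, or 0.29, 0.16 and 0.22 times the no LPS level. None of the 8 genes was called higher. At 2 h 1 was called lower, and 2 at each later time. Among all genes tested, 3.18% were called higher and 6.29% lower at 2 h. The shares were 4.72% and 9.05% at 4 h and 4.86% and 6.65% at 8 h. The median log2 ratio of the 8 genes was -0.25, -0.09 and -0.17, beside -0.03, 0.02 and 0.10 over all genes.

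In such sums, fewer cells of a type and less RNA per cell cannot be told apart. The share of CD14-gated cells was also lower in the LPS libraries. So was the summed level of the monocyte list, at 2234, 720, 376 and 757 CPM, CD14 being 1 of its 9 genes. Both were higher at 8 h than at 4 h. The counting intervals of TLR4 at 4 h (13.4 to 15.8 CPM) and 8 h (11.1 to 14.6 CPM) overlapped. The part of the gate share and of the monocyte list in the TLR4 values was not tested. The CD14 gate held 65.4% of all TLR4 UMIs without LPS and 46.2%, 35.3% and 31.6% with LPS. When the gates of each library were weighted to the make-up of the no LPS library (a choice made with the data seen), TLR4 stood at 23.7, 26.8, 39.3 and 22.9 CPM. It was then called lower at no time, and was called higher at 4 h (log2 ratio 0.71), as was TIRAP. CD14 stood at 501, 286, 346 and 314 CPM in this weighting. It was thus below the no LPS level at each LPS time, but was called lower only at 2 h and 8 h.

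LY96 stood at 33.5, 25.8, 24.6 and 29.6 CPM over all cells. MYD88 stood at 60.8, 49.1, 54.5 and 51.0 CPM, and IRAK4 at 54.3, 47.4, 56.3 and 48.3 CPM. For these genes the ratios to no LPS ran from 0.73 to 1.04. TIRAP, TICAM2 and TRAF6 had ratios from 0.95 to 1.31, the highest of them TIRAP at 2 h (1.11 to 1.55).

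Inside the CD14 gate TLR4 was higher at 4 h, while IRAK4 and TICAM2 were lower. TLR4 ratios to no LPS were 1.15 (1.0097 to 1.31) at 2 h, 1.91 (1.62 to 2.24) at 4 h and 0.91 (0.70 to 1.17) at 8 h. TIRAP rose from 11.4 CPM to 20.9 at 2 h and 28.5 at 4 h, ratios of 1.84 and 2.50, and stood at 10.5 CPM at 8 h on 9 UMIs. MYD88 stood at 78.0, 48.2, 95.9 and 73.5 CPM, lower at 2 h only (0.62). LY96 was likewise lower at 2 h only (0.65). IRAK4 fell to 0.53 times at 2 h (0.42 to 0.66) and 0.56 times at 4 h (0.39 to 0.79), with 0.78 at 8 h not called. TICAM2 was called lower at all 3 times, although its counts there were 19, 3 and 3 UMIs and the counting interval included 1 at 2 h and 8 h. TRAF6 was called at none.

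Of the 7 genes, CD14 being left out as the gate gene, 1 was thus called higher and 4 lower at 2 h. At 4 h 2 were higher and 2 lower, and at 8 h TICAM2 alone was called. All genes tested in the gate moved widely, with 7.78% called higher and 44.5% lower at 2 h. The shares were 14.0% and 23.2% at 4 h and 25.4% and 10.7% at 8 h. The median log2 ratio of the 7 genes was -0.60, 0.29 and -0.11, beside -0.51, -0.13 and 0.16 for all genes. The 2 h ratios of LY96 (-0.60), MYD88 (-0.68) and TICAM2 (-0.65) thus lay near the shift of all genes. Scaling moved this split. With edgeR's TMM factors 14.8% of all genes were higher and 21.0% lower at 2 h, and 14.6% and 20.3% at 8 h. With DESeq2 size factors the shares were 17.6% and 16.8% at 2 h and 15.8% and 18.2% at 8 h. Under both, the calls at 2 h were TLR4 and TIRAP higher (TLR4 log2 ratios 0.63 and 0.74) and no gene lower, so the 2 h falls of LY96, MYD88, TICAM2 and IRAK4 hold only relative to total UMIs.

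The same granulocyte receptors moved with these values. In the CD14 gate CSF3R stood at 10.7, 39.5, 106 and 43.2 CPM and CXCR1 at 4.90, 24.3, 96.6 and 22.2 CPM, and 8.29%, 24.9%, 41.7% and 11.8% of the cells had a UMI of CSF3R, CXCR1 or CXCR2. The neutrophil list as a whole summed to 5065 to 10256 CPM, nearly all of it S100A12, which was also high in cells gated by CSF1R, and PGLYRP1 was at 0 without LPS and at 4 h. Without the cells that had such a UMI (730, 287, 88 and 150 cells were left), TLR4 stood at 83.0, 80.8, 125 and 73.0 CPM, and its 4 h ratio of 1.503 (1.21 to 1.85) was just short of a call. TIRAP then stood at 11.3, 16.8, 16.9 and 10.4 CPM and was not called. MYD88 stood at 0.47 and 0.75 times the no LPS level at 2 h and 4 h, and IRAK4 at 0.54 and 0.55 times. What part such cells have in the remaining differences was not tested.

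A gate that did not use CD14 gave CD14 a reading of its own. Cells with a UMI of CSF1R, the receptor for macrophage colony-stimulating factor, and none of CD3E, MS4A1 and NCR1 numbered 429, 133, 39 and 36. This gate gene was itself lower with LPS. In the CD14 gate CSF1R stood at 130, 52.6, 59.4 and 84.0 CPM and was called lower at all 3 times. What part this has in the values below was not tested. In the CSF1R-gated cells CSF3R was at 5.32 to 9.57 CPM and CXCR1 at 2.15 to 21.2 CPM. CD14 in these cells stood at 2321, 1403, 1828 and 2153 CPM, lower at 2 h (0.60, 0.58 to 0.63) and not called at 4 h (0.79) and 8 h (0.93). TLR4 stood at 89.2, 84.1, 124 and 94.4 CPM and was called at no time, with a 4 h ratio of 1.39 (1.08 to 1.78). IRAK4 was lower at all 3 times, at 0.53, 0.53 and 0.45 times, on 55, 17 and 11 UMIs. MYD88 was lower at 2 h and 4 h, at 0.54 and 0.61 times. LY96 was lower at 2 h (0.62), TRAF6 at 4 h (0.57, on 5 UMIs) and TICAM2 at 4 h and 8 h, on 1 and 2 UMIs. Of the 8 genes 4, 4 and 2 were thus called lower and none higher. Among all genes in this gate 46.1%, 28.6% and 26.8% were called lower and 7.25%, 11.7% and 12.1% higher by LPS time, with a median log2 ratio of -0.53 at 2 h.

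**Figure D3:**
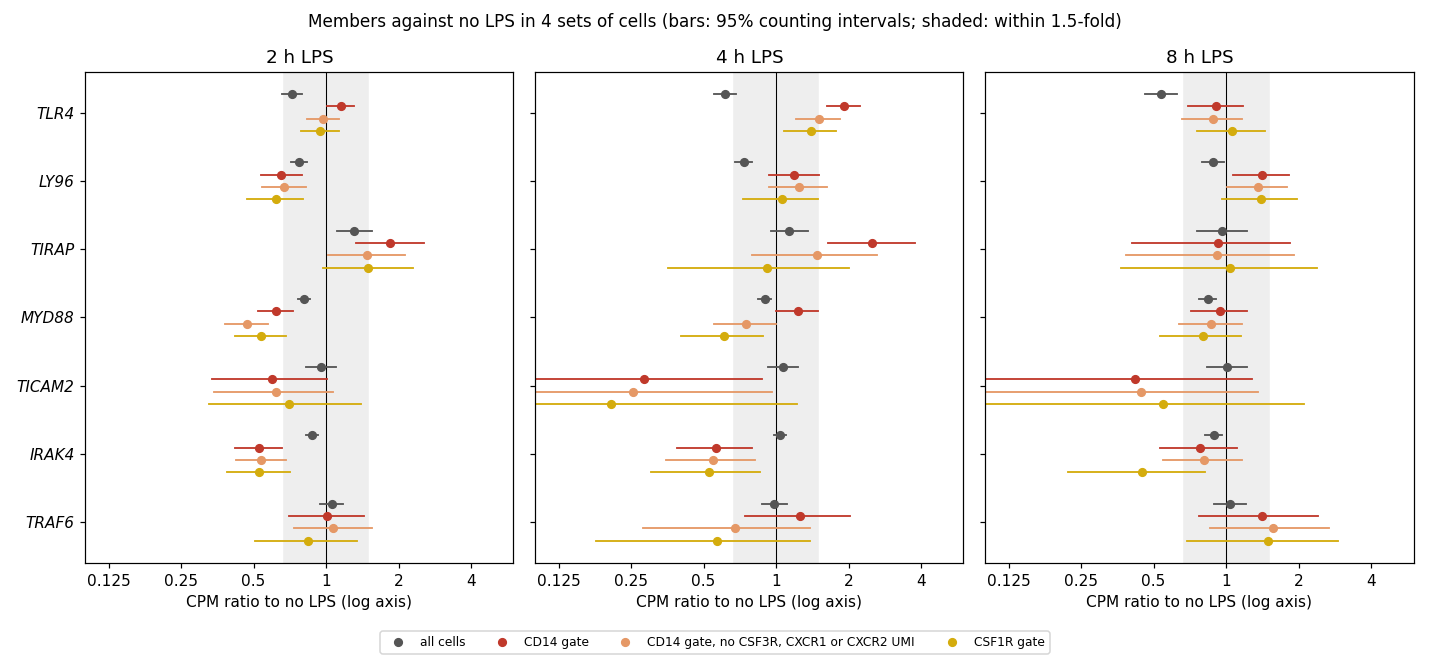
Ratio of CPM to the no LPS library (log axis; bars are 95% counting intervals, shading marks ratios within 1.5-fold) for 7 genes in all cells, the CD14 gate, the CD14 gate without cells that had a CSF3R, CXCR1 or CXCR2 UMI, and the CSF1R gate. IRAK4 lies at 0.53 to 0.56 in the 3 gated sets at 2 h and 4 h, and TLR4 at 4 h lies at 0.62 in all cells and at 1.39 to 1.91 in the gated sets.

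Among lymphocytes the complex gave 1 call. In the CD3E gate none of the 7 genes was called at any time, where 4.47%, 7.40% and 6.51% of all genes were called in either direction by LPS time. In the MS4A1 gate the only call was TLR4 at 4 h, on 22 UMIs without LPS and 64 at 4 h (1.99 times, 1.21 to 3.40), where 19.9%, 24.2% and 14.9% of all genes were called. Without the cells that had a granulocyte receptor UMI its ratio there was 2.04 (1.13 to 3.85).

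Beyond the receptor complex, 38 further genes of the TLR4 pathway were read, of which 37 were listed. They were chosen by role. Over all cells 5 of 36 tested were called higher and 1 lower at 2 h, where 3.18% and 6.29% of all genes were. At 4 h 5 and 2 were called (4.72% and 9.05% of all genes), and at 8 h 2 and 1 (4.86% and 6.65%). Inside the CD14 gate 5 were higher and 11 lower of 32 tested at 2 h, beside 7.78% and 44.5% of all genes. At 4 h 10 and 5 of 31 were called (14.0% and 23.2% of all genes), and at 8 h 9 and 2 of 31 (25.4% and 10.7%). The gate summed to 6935887, 3819842, 1262368 and 856677 UMIs. Low levels of single genes, such as those of BTK and SIGIRR below, thus come from few UMIs.

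Among the inhibitors, 3 of 8 tested were called higher in the CD14 gate at 2 h, 5 of 7 at 4 h and 4 of 7 at 8 h, and none lower, where 7.78%, 14.0% and 25.4% of all genes were called higher. Their median log2 ratio was 0.42, 0.79 and 0.87, beside -0.51, -0.13 and 0.16 for all genes. TNFAIP3, the deubiquitinase A20 that limits NF-κB signalling, rose from 285 CPM to 1282, 957 and 523 CPM. IRAK3, a kinase-dead relative of IRAK4 that restrains the pathway, rose from 16.6 CPM to 34.6, 29.3 and 37.4 CPM. SIGIRR, a receptor that dampens TLR and interleukin-1 signals, went from 5.77 CPM to 3.66, not called, and then to 11.1 and 25.7 CPM, both called higher. CYLD, another deubiquitinase, was higher at 4 h and 8 h, and PIK3AP1, an adaptor to PI3 kinase, at 2 h and 4 h.

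Of the steps after MYD88, 2 of 12 tested were called higher and 6 lower at 2 h, with 3 and 2 at 4 h and 2 and 1 at 8 h. Of all genes in the gate 7.78%, 14.0% and 25.4% were called higher by LPS time, and 44.5%, 23.2% and 10.7% lower. The median log2 ratio of the 12 at 2 h was -0.59, beside -0.51 for all genes. IRAK2, which joins the complex of MYD88 and IRAK4, rose from 66.3 CPM to 154, 154 and 110 CPM. PELI1, a ubiquitin ligase acting on IRAK proteins, rose from 47.6 CPM to 114, 161 and 100 CPM. IRAK1, the kinase that IRAK4 activates, fell from 66.6 CPM to 39.3 and 37.2 CPM at 2 h and 4 h and stood at 51.4 CPM at 8 h. BTK, a kinase that binds TIRAP, fell from 15.1 CPM to 2.36 and 5.55 CPM and stood at 17.5 CPM at 8 h. At 4 h IKBKB, the beta subunit of the IκB kinase, was higher too.

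For the interferon branch after TICAM1 none of 6 genes was called at 2 h, beside 7.78% of all genes called higher and 44.5% lower. Called higher at 4 h and 8 h were IRF3, the transcription factor of the branch, and TANK, a scaffold of TBK1. These 2 of 6 stand beside 14.0% and 25.4% of all genes called higher. IRF3 stood at 15.0, 10.995, 26.1 and 31.5 CPM. Among the genes of LPS delivery and receptor assembly 5 of 6 tested were lower at 2 h, with 3 lower at 4 h and CD36 alone at 8 h, beside 44.5%, 23.2% and 10.7% of all genes. Their median log2 ratio at 2 h was -1.09, relative to total UMIs as for the receptor genes. The scavenger receptor CD36 was lower at all 3 times, at 516, 206, 125 and 253 CPM. CNPY3, a chaperone of TLRs, was lower at 2 h only (42.7 against 87.7 CPM). LY86, the partner of the TLR4 relative CD180, was lower at 2 h and 4 h and was the 1 gene of the group called higher at 8 h.

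In the CSF1R gate, TNFAIP3 was again higher and CD36 lower at all 3 times. IRAK2 and IRAK3 were called higher there at 2 h and 8 h, and PELI1 at 2 h and 4 h. The inhibitors differed between the gates: in the CSF1R gate 3 were called higher and 1 lower (SIGIRR) of 7 tested at 2 h, 1 and 1 (CYLD) of 6 at 4 h, and 3 and 0 of 7 at 8 h. Their median log2 ratio there was -0.23, 0.31 and 0.49, beside -0.53, -0.20 and -0.16 for all genes. Of all genes in this gate 7.25%, 11.7% and 12.1% were called higher and 46.1%, 28.6% and 26.8% lower.

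**Figure D4:**
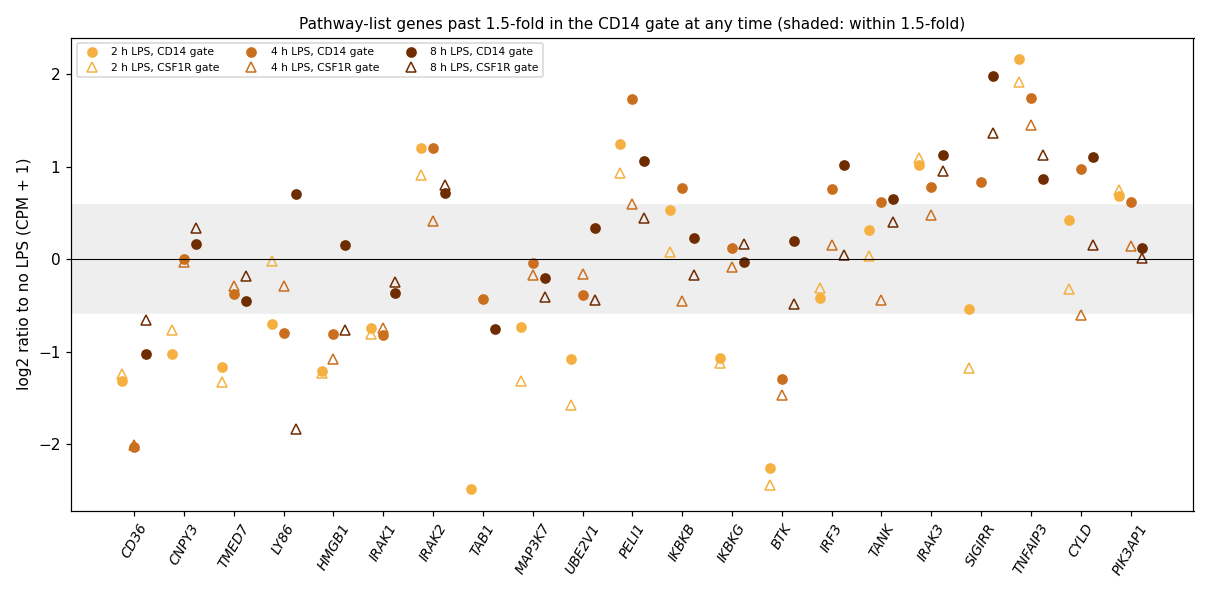
Log2 ratio of CPM + 1 to the no LPS library for the pathway genes past 1.5-fold in the CD14 gate at any time (circles, CD14 gate; triangles, CSF1R gate; shading marks values within 1.5-fold). TNFAIP3 and IRAK3 lie above 0 and CD36 below 0 in both gates at all 3 times, whereas LY86 and CYLD change sign between gates or times.

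Chromatin at the genes was read from the scATAC-seq tables, which give counts per gene and nucleus without gene names or a stated counting rule. Genes were matched by Ensembl identifier. The no LPS library held 975012 counts in 3121 nuclei, against 11957904 to 30250143 counts in the LPS libraries, so its values rest on 150 counts or fewer per gene. Between 88.7% and 93.8% of the values above 0 were even, and intervals were computed on halved counts.

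TLR4 stood at 52.3, 57.4, 61.9 and 37.2 CPM, here counts per 1000000 counts of the library. The 8 h value was 0.65 times that at 2 h (0.56 to 0.75). LY96 stood at 39.0, 39.1, 37.4 and 31.4 and TRAF6 at 48.2, 47.5, 43.7 and 45.4, and neither was called in any comparison. IRAK4 stood at 154, 98.7, 111 and 130, called lower against no LPS at 2 h only (0.64, 0.51 to 0.82). TICAM2 stood at 65.6, 33.5, 35.1 and 28.1 and was called lower against no LPS at all 3 times, from 64 counts in the no LPS library.

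MYD88, CD14 and TIRAP were barely covered. MYD88 had 0, 112 and 26 counts without LPS, at 2 h and at 4 h. Against a floor of 3 counts, 3.08 CPM, it was at least 1.203-fold higher at 2 h, while the 4 h value lay under the floor. However, the counting interval of the no LPS value reached 7.57 CPM, above both. MYD88 at 4 h was 0.26 times the 2 h value (0.13 to 0.48). CD14 and TIRAP were listed at 2 h and 4 h, CD14 at 21.5 and 15.6 and TIRAP at 1.85 and 1.56 CPM.

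Leaving out MYD88, whose value without LPS is 0, 2, 1 and 1 genes were called against no LPS by LPS time, all lower, where 31.3%, 28.3% and 23.8% of all genes were called in either direction. One gene each was called at 4 h and at 8 h against 2 h, where 4.68% and 16.8% of all genes were. With each gene counted once per nucleus, the calls of IRAK4 and TICAM2 at 2 h, of TICAM2 at 4 h and of TLR4 at 8 h against 2 h were lost. Nuclei were also assigned to lineages by their counts on marker genes, of which 3 to 6 of 8 monocyte genes were listed. TLR4 stood at 111, 70.7 and 61.3 CPM in the 79, 72 and 27 monocyte-marker nuclei by LPS time. T-marker nuclei had 39.5, 27.6 and 18.5 and B-marker nuclei 40.5, 53.4 and 30.0. The unassigned nuclei, which held most TLR4 counts (1314 of 1737 at 2 h), had 60.3, 67.2 and 40.4, at 4 h close to the monocyte-marker value. The 8 h monocyte value comes from 15 counts.

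**Figure D5:**
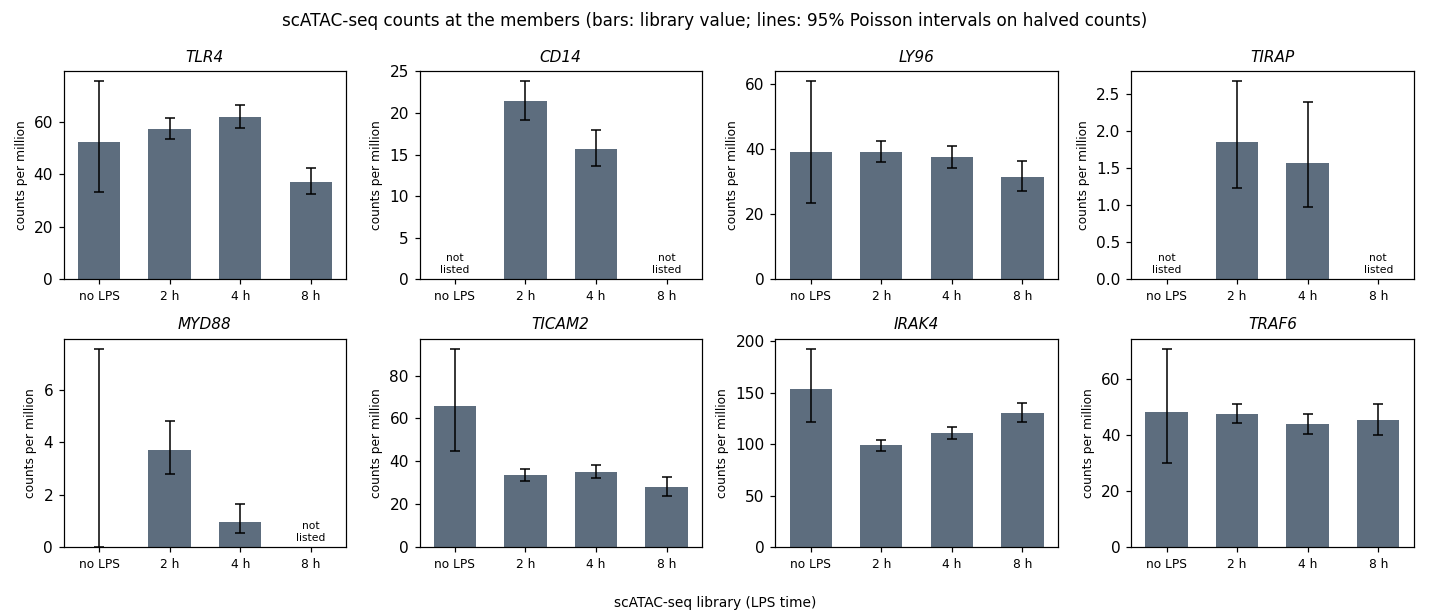
scATAC-seq CPM at each of the 8 genes in the 4 libraries (bars, axes from 0; lines are 95% Poisson intervals on halved counts; "not listed" marks genes without an entry in that library's table). TLR4 is lowest at 8 h (37.2) and TICAM2 highest without LPS (65.6), where the intervals are widest.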

How the data were processed

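Per the labels and the submitters' processing notes, reads of 10x libraries were processed with Cell Ranger on the cattle genome ARS-UCD1.2 (bosTau9). The scRNA-seq tables deposited by the authors hold unnormalized UMI counts for 3860 to 10429 barcodes per library, before any limit on cells. Their scATAC-seq tables hold counts for each gene in each nucleus, with a counting rule that is not given in the sources used here. The genes described and all gene lists were chosen with earlier results of these data known.

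The limits stated for the study were applied to cells, reading its UMI limit as a minimum: 200 to 3000 genes, no fewer than 200 UMIs, and less than 20% of UMIs from mitochondrial genes. They left more cells than the study counts, and whether a further filter was used there is not given in the sources used here. Doublets were treated only by the upper gene limit and by gating on exactly 1 gate gene, and no caller was run. Cells with more than 1 gate gene (414 to 699 per library) and with none (556 to 1441) were set apart. UMIs were summed per library and gate, scaled to CPM and compared as log2((CPM + 1)/(CPM + 1)). A gene with at least 20 UMIs over the 2 libraries was called past 1.5-fold. Intervals (95%) were exact Poisson, exact binomial (Clopper-Pearson) or, for ratios, exact conditional binomial. PCR duplicates of scATAC-seq fragments were not assessed. Genes named were the members, gate genes, pathway genes past 1.5-fold and listed markers, plus the 3 genes most like each member. Other normalizations used edgeR 4.0.16 (TMM) and DESeq2 1.42.0 (size factors), neither for a test. Python 3.11.15 with scipy 1.17.1 was used, and the ratio step was tested on simulated data. Gene coordinates and sequences were not used here.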

Additional observations from a re-analysis of the deposited data

How the results depend on the processing

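Counts of calls, log2 ratios over all cells and in the CD14 gate, gate shares and shares of cells with a UMI were recomputed under other cell limits, gates, scalings, pseudocounts and UMI minimums, of which the no LPS gate make-up and the sets without granulocyte receptors were chosen after seeing the data. Of the log2 ratios of single genes, 255 over all cells and 261 in the CD14 gate kept their side of 1.5-fold. A call was lost by 6 and 30 and gained by 2 and 14. Direction was compared only for ratios that were called as reported. Called ratios that reversed, both at 4 h, were TLR4 over all cells with the no LPS gate make-up (0.71) and TIRAP with the CSF1R gate (-0.11). Uncalled ratios changed sign too. With the CSF1R gate, MYD88 and TRAF6 at 4 h went from 0.29 and 0.31 in the CD14 gate to -0.71 and -0.75, called lower. TLR4 at 2 h went from 0.20 to -0.09, not called. Over all cells, calls (1, 2 and 2 at 2 h, 4 h and 8 h) became 2 at 2 h with at least 2000 UMIs per cell, 1 at 4 h with a pseudocount of 5, 1 at 4 h and 8 h with every cell weighted equally, and 1 at 8 h without the upper gene limit or with the no LPS make-up. In these settings 3.09% to 6.03% of all genes were called higher and 3.44% to 8.13% lower. In the CD14 gate, calls (5, 4 and 1) at 2 h became 3 without the upper gene limit, with a pseudocount of 5 and with the CSF1R or 2-of-6-gene gate, and 2 with TMM or size factors. The share of all genes called moved with the setting too. From 44.5% lower at 2 h it went to 31.7%, 28.5%, 46.1%, 47.0%, 21.0% and 16.8% in this order. The share higher went from 7.78% to 7.48%, 5.84%, 7.25%, 6.86%, 14.8% and 17.6%. At 8 h the calls in the CD14 gate became 2 with at least 2000 UMIs per cell, TMM, 2 CD14 UMIs or CSF1R, 3 with equal weights and 0 with CD14 whatever the other 3, which gave 2 at 4 h. In these settings 12.1% to 39.8% of all genes were called higher at 8 h and 9.48% to 26.8% lower, beside 25.4% and 10.7% as reported. With CD14 whatever the other 3, 14.8% were higher and 14.9% lower at 4 h. With at least 200 UMIs the calls in this gate were 3, 2 and 0, where 8.83%, 10.7% and 13.2% of all genes were higher and 38.6%, 21.2% and 10.1% lower. Without CSF3R, CXCR1 and CXCR2 cells they were 3, 2 and 2, where 7.12%, 14.6% and 26.3% were higher and 43.4%, 22.0% and 10.3% lower. The CD14-gate shares (no LPS, 2 h, 4 h, 8 h) became 9.04%, 3.12%, 1.58% and 1.93% with 2 UMIs, 15.8%, 6.37%, 3.98% and 12.9% whatever the other 3, 5.49%, 1.35%, 0.53% and 1.06% by CSF1R, 8.09%, 2.31%, 1.02% and 1.67% by 2 of 6 genes, 8.99%, 3.35%, 1.57% and 2.59% with at least 2000 UMIs, and 3.24% (2 h) and 4.25% (8 h) after thinning. In accessibility, with MYD88 included (3, 2 and 1 calls against no LPS, and 1 each against 2 h), counting each gene once per barcode gave 1 call at 2 h, 1 at 4 h and 0 at 8 h against 2 h, and at least 200 counts gave 1 at 4 h and 0 at 4 h against 2 h. Apart from the smaller sets, the cause was not tested. No paired analysis was possible because each treatment had 1 library per assay.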

Other observations

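For each gene of the complex with at least 200 UMIs, the genes with the most similar levels over the 16 gate and library sums were listed by Pearson's correlation of log2(CPM + 1). This is a description: the sums share 4 libraries and 4 gates, and the shallow NCR1 gate carries 4 of the 16 points. Besides 2 genes without a symbol, TLR4 ran closest to MAP2K1 (0.97), a kinase of the MAP kinase cascade. LY96 ran closest to RHBDF2 (0.93), which carries the protease ADAM17 to the cell surface, and MYD88 to DERL2 (0.90), a protein of the endoplasmic reticulum. The closest to TIRAP was DTX2 (0.92), followed by the GTPase NRAS (0.90). IRAK4 ran closest to CLIC1 (0.94), TICAM2 to FAM160B1 (0.90) and TRAF6, more loosely, to SGSH (0.82). Within the complex TLR4 correlated at 0.88 with the gate gene CD14, 0.65 with MYD88, 0.58 with TIRAP, 0.52 with LY96 and 0.24 with TRAF6, and at -0.71 with IRAK4 and -0.67 with TICAM2.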
